A study of Homo sapiens with 3 samples.

Results

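The ribosomal protein genes were taken as every gene whose symbol matched the systematic pattern of cytoplasmic ribosomal proteins (RPL or RPS with a number and, at most, a letter A, X or L and a digit after it, plus RPSA, RPLP0, RPLP1 and RPLP2). The rule found 84 of the 33538 genes in the matrices, 52 of the large and 32 of the small subunit. The rule itself uses gene symbols and no measured value. Among them were 7 paralogs with an L in the suffix (RPS27L, RPL22L1, RPL39L, RPL7L1, RPL26L1, RPL10L and RPL3L). A gene counted as measured in a comparison when it reached 50 CPM (UMIs per 1e6 gene UMIs of a population, a UMI being a molecular barcode that stands for 1 captured RNA) in either population. This held for 81 members in all 6 comparisons made here, and the lowest of these 81 in NC, RPL7L1, stood at 128 CPM. RPL39L, RPL10L and RPL3L were not measured, with 0 to 9 UMIs in any population. Ribosomal proteins with other symbols, such as FAU, RPL36AL and the ribosome-bound scaffold RACK1, fell outside the rule and are given apart.

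Each cytoplasmic ribosome holds a small subunit that reads the mRNA and a large subunit that joins amino acids, and each subunit is built from ribosomal RNA and a fixed set of proteins. The mRNAs of these proteins are among the most abundant in growing cells, and many begin with a run of pyrimidines, the terminal oligopyrimidine tract, through which growth signals set their translation as a group. Ribosomal proteins that are not built into ribosomes have roles of their own. RPL5 and RPL11 form a particle with 5S ribosomal RNA that can bind MDM2, the ligase that marks p53 for destruction, and RPS27L, a paralog of RPS27, is transcribed under the control of p53.

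The cells were HCT116, a human colorectal cancer line, with the genotype given as p53plus, and each population was 1 sample. Mix1 pooled giant cells that had been irradiated with 8 Gy, isolated on day 5 or 8 and cultivated until day 10 or 11, the persisters (RTP cells) of the study. Mix2 pooled irradiated cells (IR) made by the same process and marked with the antibody tag8, cells that were never irradiated (NC, tag6) and repopulated cells (R, tag7), which had regrown after irradiation. In Mix2 the cells carrying tag8 were split by its level into strong IR and weak IR. The days pooled in Mix1 and in IR were not resolved here, and the loaded cells were 10000 for Mix1 and 10000 IR, 1000 NC and 1000 R for Mix2.

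NC held 810 cells, R 633, strong IR 2216, weak IR 6322 and Mix1 15630. The populations had 4731705 to 150680612 UMIs each and a median of 6933 to 11861.5 UMIs per cell. Mix1 thus kept more barcodes than the cells loaded for it, and 3626 of them had at most 3000 UMIs. The paper reports far fewer cells for Mix1 than kept here, fewer for NC, and more for R. For the irradiated cells of Mix2 it reports fewer than strong and weak IR hold together. How many kept barcodes of Mix1 were whole giant cells was not tested. The libraries shared 59 barcodes. Of 7 epithelial markers, 4 reached 10 CPM in every population and KRT20, CDX2 and VIL1 did not, and none of the markers listed for erythroid, endothelial, immune or fibroblast cells did, with at most 6.97 CPM summed over a list. CDKN1A, the cell cycle inhibitor induced by p53, stood at 180 CPM in NC, 255 in R, 265 in weak IR, 630 in Mix1 and 918 in strong IR, and MKI67, a gene of proliferating cells, at 334, 317, 288, 165 and 126 CPM in that order. By these 2 genes weak IR lay next to R and NC and not next to strong IR, although it carried the tag of the irradiated cells, so it is named here by its tag level only. With 1 sample per population no test was possible. Each ratio of CPM is given with an exact conditional binomial 95% interval that covers counting error only, and a gene was called higher or lower at a ratio past 1.2 with an interval that left out 1.

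Coding sequences are shown for 2 pairs because one paralog, RPS27L, had the highest ratio of all members and another, RPL39L, was next to absent while its partner was abundant. They are read from GENCODE 44 (GRCh38), 5′ to 3′, and capitals mark the bases at which a pair differs. RPS27 (chr1:153990762-153992155, plus strand) and RPS27L (chr15:63125872-63158021, minus strand) each have 255 coding bases, of which 199 are identical (78.0%), with no identical run longer than 20 bases. RPL39 (chrX:119786504-119791630, minus strand) and RPL39L (chr3:187120948-187180908, minus strand) each have 156 coding bases, of which 148 are identical (94.9%) and 44 in the longest run. The library kit reads the 3′ end of transcripts, so these differences are not the only ones that separate the counts.
RPS27: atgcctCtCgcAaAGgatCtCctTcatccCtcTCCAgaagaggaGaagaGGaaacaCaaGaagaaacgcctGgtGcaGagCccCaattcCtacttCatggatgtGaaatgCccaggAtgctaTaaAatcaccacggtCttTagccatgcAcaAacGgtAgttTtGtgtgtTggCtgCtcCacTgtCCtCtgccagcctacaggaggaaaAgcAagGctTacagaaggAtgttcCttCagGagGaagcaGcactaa
RPS27L: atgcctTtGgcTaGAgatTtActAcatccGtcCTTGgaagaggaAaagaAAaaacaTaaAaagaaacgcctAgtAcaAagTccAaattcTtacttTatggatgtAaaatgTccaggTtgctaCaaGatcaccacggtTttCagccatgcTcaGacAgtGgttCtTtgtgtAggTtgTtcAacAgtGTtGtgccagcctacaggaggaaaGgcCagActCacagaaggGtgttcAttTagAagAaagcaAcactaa
RPL39: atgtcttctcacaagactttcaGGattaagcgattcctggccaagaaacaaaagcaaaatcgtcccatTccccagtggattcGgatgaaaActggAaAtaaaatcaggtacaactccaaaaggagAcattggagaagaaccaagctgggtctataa
RPL39L: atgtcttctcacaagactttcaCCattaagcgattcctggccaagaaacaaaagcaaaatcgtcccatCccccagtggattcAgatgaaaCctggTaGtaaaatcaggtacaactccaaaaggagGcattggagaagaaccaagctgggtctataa

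The first 20 bases of the canonical transcript are shown for members on either side of the comparisons below, to set the tract at which these mRNAs begin beside their ratios. Capitals mark a C at the first base and the unbroken run of C and T after it, where at least 4 pyrimidines follow. Such a tract opened 59 of the 84 members (70.2%), against 917 of 20030 protein-coding genes (4.58%). It opened 58 of the 77 members that are not paralogs and 1 of the 7 paralogs, RPL22L1. Of the 5 members shown, RPL11, RPL39, RPL5 and RPS29 have the tract and RPS27L has not.
RPL11: CTCTTCCTgctctccatcat
RPL39: CCCTCCTCTTCCTTTCTCCg
RPL5: CCTTTTCCCaccccctagcg
RPS29: CTTCCTTTTacctcgttgca
RPS27L: gcagatcgcttgcagcttgc

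The first question was whether irradiated, regrown and untouched cells spend a like part of their RNA on ribosomal proteins. In NC the 84 genes gave 23.5% of all gene UMIs, in weak IR 23.8%, in R 24.0%, in strong IR 27.2% and in Mix1 28.7%, with binomial intervals no wider than 0.1 percentage points around each. The populations of untouched, regrown and weakly tagged cells thus lay within 1 point of each other, and strong IR and Mix1 stood above all 3. Per cell both the median and the spread were larger in strong IR than in NC, while the lowest shares were alike. The median share was 23.6% in NC and 26.5% in strong IR, the latter above the 75th percentile of NC (24.9%). The 5th percentile was 19.97% and 19.8%, and the 95th percentile was 27.0% and 38.1%. In Mix1 the median was 28.6%, the 5th percentile 21.9% and the 95th percentile 37.6%. All values of Mix1 include its 3626 barcodes of up to 3000 UMIs, whose median share was 29.9%. Cells with more than 30% of their UMIs from these genes made up 0.494% of NC, 1.90% of R, 2.63% of weak IR, 27.9% of strong IR and 33.5% of Mix1. NC and strong IR thus began at a like level, and the upper end was reached mainly by cells of strong IR and Mix1.

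**Figure D1:**
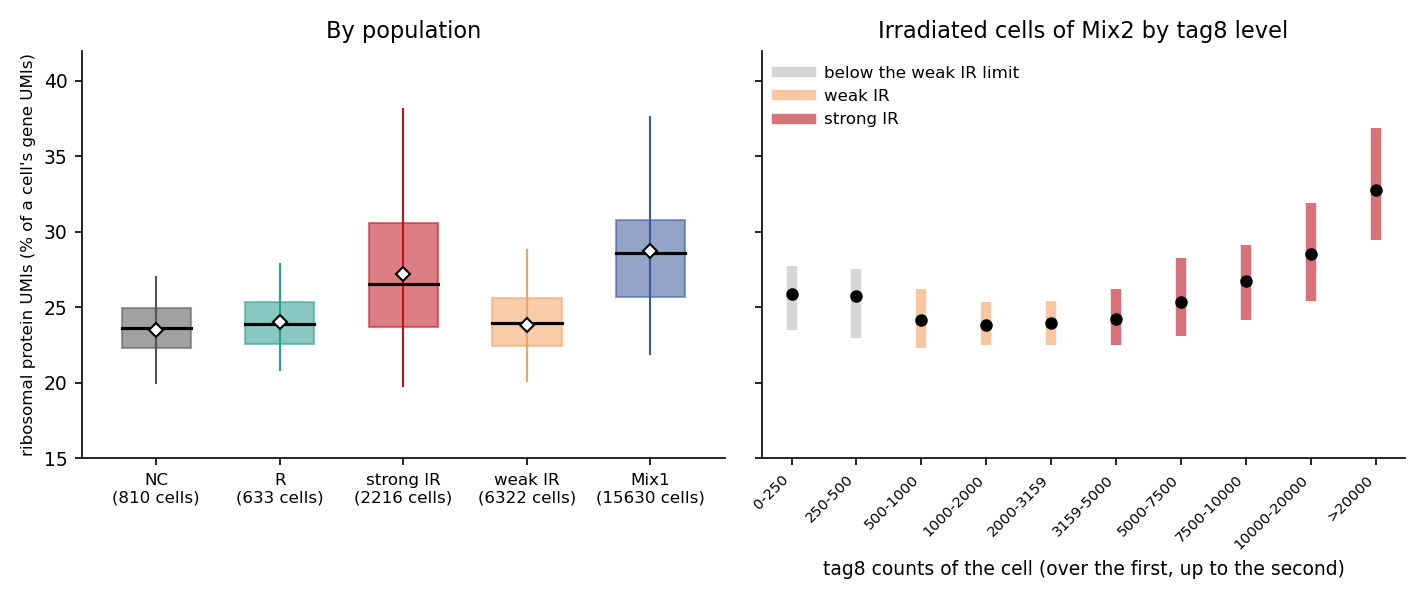
Share of a cell's gene UMIs that came from the 84 ribosomal protein genes. Left, the 5 populations, with boxes from the 25th to the 75th percentile of cells, lines from the 5th to the 95th, black bars at the median and diamonds at the pooled share. Right, cells of Mix2 that carried tag8, by tag8 counts, with bars from the 25th to the 75th percentile and dots at the median. The median stays near 24% in weak IR and reaches 32.7% in the cells with the most tag8.

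At matched depth strong IR and Mix1 again stood above the other populations. Among cells of 7500 to 10000 UMIs the median share was 23.4% in NC, 23.5% in R, 23.6% in weak IR, 26.2% in strong IR and 27.0% in Mix1. Among cells of 3000 to 5000 UMIs it was 23.6%, 24.2%, 24.0%, 30.1% and 30.1% in the same order. Droplets of Mix2 without cells, which show the free RNA of the suspension, had 22.5% of their UMIs from these genes, a share near that of NC. Mitochondrially encoded genes took 6.03% of UMIs in NC, 7.13% in R, 6.54% in weak IR, 5.49% in strong IR and 4.06% in Mix1. In cells over the mitochondrial limit, which were left out, the median share was 21.7% in strong IR and 18.2% in NC.

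Among the cells that carried tag8 the share was near 24% from 500 to 5000 counts and higher in each step above that. The median over cells was 24.1% at 500 to 1000 tag8 counts, 23.8% at 1000 to 2000 and 24.0% above 2000 up to the limit of strong IR. Above that limit it was 24.2% up to 5000 counts, 25.4% up to 7500, 26.7% up to 10000, 28.5% up to 20000 and 32.7% beyond. Other genes moved along the same steps. Cells of up to 250 and of 250 to 500 tag8 counts, which belong to neither IR population, had medians of 25.8% at 681.5 and 1272 UMIs per cell. From the lowest to the highest step of strong IR, CDKN1A went from 951 to 1644 per 1e6 UMIs outside the members and the mitochondrial genes, MKI67 from 298 to 59.5, and MALAT1, a nuclear long non-coding RNA, from 20199 to 3254. The median mitochondrial share went from 6.82% to 1.42%, and the median UMIs per cell were 11574 and 8266. The part of these in the higher share was not tested.

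Strong IR was next compared with NC gene by gene, within the Mix2 library. The median log2 ratio over the 81 measured members was 0.17, against -0.13 over all 2932 measured genes, and 64 members lay above 0 and 17 below. A total of 25 members was called higher (30.9% of the 81, against 21.2% of all measured genes) and 3 were called lower (3.70%, against 39.3% of all). So lower calls were rarer among the members than among genes at large, while higher calls were somewhat more common. With TMM scaling the median of all genes was -0.03 and that of the members 0.26, with 39 members called higher (against 27.6% of all genes). With all cells of Mix2 that carried tag8 (strong and weak) as 1 population, 4 members were called higher (4 of 81, against 8.18% of all measured genes) and 0 lower (against 17.3%), so the higher calls of the members were then below the background. The SD of the log2 ratios was 0.24 over the members and 0.56 over all measured genes, and the median counting error of a single member ratio was 0.012. At a fold of 1.5, 1 member, RPS27L, was called higher and 0 lower, against 8.02% and 16.9% of all measured genes, so large differences were rarer among the members than among genes at large.

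**Figure D2:**
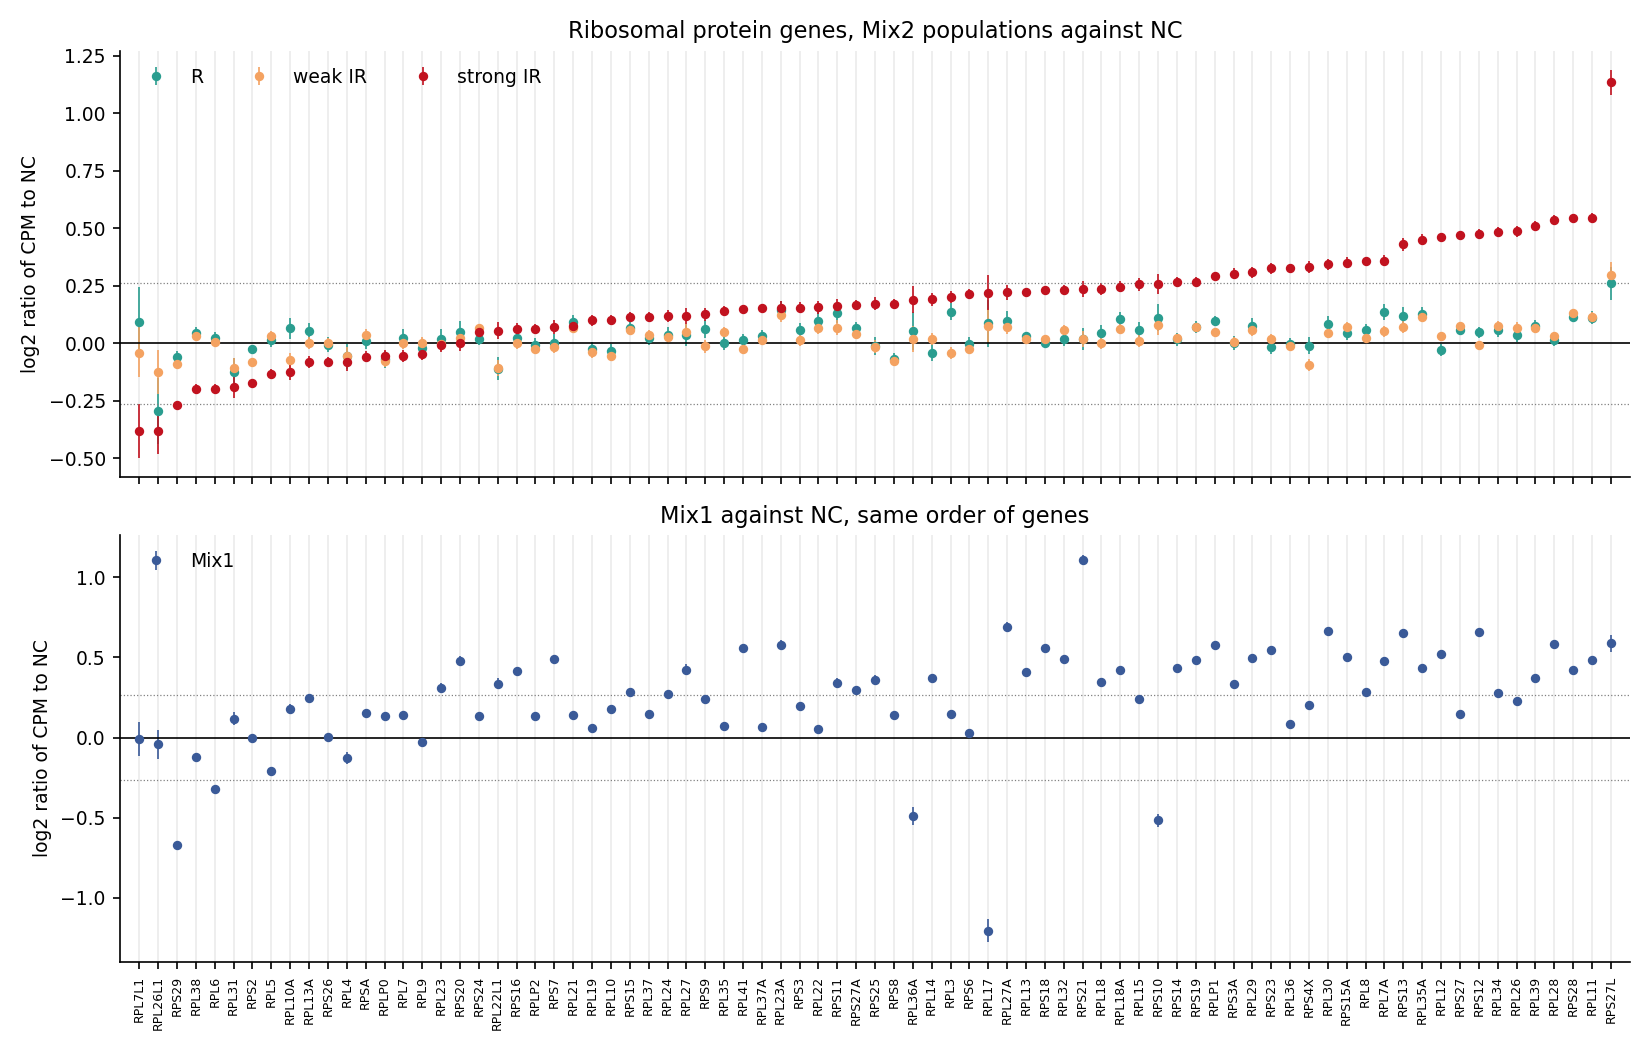
Log2 ratio of CPM to NC for 79 of the 81 measured ribosomal protein genes, ordered by the ratio of strong IR. Points are populations, bars are counting intervals (95%) and dotted lines mark the fold of 1.2 that a call needs. Strong IR (red) runs from -0.38 to 1.13, R and weak IR stay near 0 for nearly all genes, and Mix1 (lower panel) ranges from -1.21 for RPL17 to 1.11 for RPS21.

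RPS27L stood apart. Its level was 512 CPM in NC, 614 in R, 630 in weak IR, 770 in Mix1 and 1124 in strong IR, so the untouched cells were lowest and the strongly tagged cells highest. Strong IR had 2.20 times the level of NC (2.12 to 2.28), 1.83 times that of R and 1.78 times that of weak IR. With an own-tag share of 95%, which left 88 cells of NC and 44 of R, RPS27L had 1.896 against NC and 1.339 against R. It was also the highest member in weak IR (1.23, 1.19 to 1.28) and in R (1.198, 1.14 to 1.26) against NC. Its parent gene RPS27, a zinc finger protein of the small subunit, was at 5196 CPM in NC, 5410 in R, 7197 in strong IR, 5476 in weak IR and 5752 in Mix1, a ratio of 1.39 (1.37 to 1.40) in strong IR. RPL26L1 was at 166 CPM in NC, 135 in R, 128 in strong IR, 152 in weak IR and 161 in Mix1, and RPL7L1, which is named for RPL7 but takes part in ribosome assembly, at 128, 136, 98.1, 124 and 127 CPM. Their ratios in strong IR, 0.7685 (0.716 to 0.825) and 0.767 (0.708 to 0.832), were the lowest of all members, while RPL22L1 had 1.04 (1.01 to 1.06), or 0.951 with an own-tag share of 95%. In Mix1 RPL22L1, like RPS27L, was called higher, at 1.26 (1.23 to 1.29). RPL39L gave 0 UMIs in NC, R and strong IR, 1 in weak IR and 4 in Mix1.

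RPL11, RPS28, RPL28 and RPL39 were among the members with the next ratios in strong IR. RPS28, a small protein of the small subunit, was at 5280 CPM in NC, 5715 in R, 7707 in strong IR, 5778 in weak IR and 7068 in Mix1, a ratio of 1.46 (1.44 to 1.48) in strong IR. Of the large subunit, RPL28 had a ratio of 1.45 (1.43 to 1.47) and RPL39, a small protein that lines the exit tunnel of the nascent chain, 1.43 (1.41 to 1.45). All 4 were below 1.10 in weak IR and in R against NC, and between 1.29 and 1.502 in Mix1.

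At the other end stood RPS29, a zinc finger protein of the small subunit, with 4971 CPM in NC, 4767 in R, 4677 in weak IR, 4126 in strong IR and 3122 in Mix1. NC was highest and the 2 irradiated populations rich in CDKN1A were lowest, with ratios of 0.830 (0.820 to 0.841) in strong IR and 0.628 (0.621 to 0.635) in Mix1. The call in strong IR was lost with TMM scaling (0.879) and with an own-tag share of 95%. RPL38 (0.871), RPL6 (0.872) and RPL31 (0.875), proteins of the large subunit, were lower in strong IR by less than the fold of a call, and RPS2, which lines the entry of the mRNA channel, had 0.886. The intervals of all 4 left out 1. In Mix1 these genes did not keep together, with 0.919 for RPL38, 0.799 for RPL6, 1.08 for RPL31 and 0.9996 for RPS2.

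RPL5 and RPL11, the protein partners of the 5S particle, differed from each other: RPL11 was called higher in strong IR and Mix1, and RPL5 was called in neither. RPL11 (chr1:23691742-23696835, plus strand) was at 3610 CPM in NC, 3899 in R, 3913 in weak IR, 5048 in Mix1 and 5270 in strong IR. RPL5 (chr1:92832013-92841924, plus strand) was at 3487 CPM in NC, 3522 in R, 3567 in weak IR, 3019 in Mix1 and 3181 in strong IR. The levels in NC were alike, and strong IR and Mix1 had more RPL11 than RPL5. The ratio in strong IR was 1.46 (1.44 to 1.48) for RPL11 and 0.912 (0.899 to 0.926) for RPL5, and in Mix1 1.40 and 0.866. RPL5 came to 0.996 in strong IR when an own-tag share of 95% was asked for, which left 88 cells of NC. Both transcripts begin with the tract shown above.

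The counts by role that follow are to be read against the 21.2% of all measured genes called higher and the 39.3% called lower in strong IR. Of 9 members listed here for binding MDM2, 5 were called higher in strong IR (RPL11, RPL26, RPS14, RPS27 and RPS27L) and 0 lower. Their median log2 ratio was 0.27, and the list need not hold every member that binds MDM2. RPL26 had 1.40, RPS14 1.202 (1.174 and not called with no mitochondrial limit), RPS3 1.11, RPS7 1.05 and RPL23 0.996, the last of which was 1.05 with TMM scaling. In Mix1, where 19.9% of all genes were called higher, 5 were called higher, RPL11, RPL23 (1.24), RPS7 (1.40), RPS14 (1.35) and RPS27L (1.503), while RPL26 had 1.17 and RPS27 1.11.

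The remaining groups by role were mixed. Against the same 21.2% and 39.3% of all genes, the small subunit had 12 of 32 members called higher and 1 lower in strong IR (median log2 ratio 0.19), and the large subunit 13 of 49 higher and 2 lower (0.16). Of the P stalk, which recruits the elongation factors, RPLP1 was called higher (1.22, or 1.191 and not called with no mitochondrial limit), RPLP2 had 1.04 and RPLP0 0.962, or 1.02 with TMM scaling. Of the 8 proteins around the tunnel exit, 2 were called higher, RPL39 and RPL26, and RPL31 was the lowest. Of the 2 proteins at the mRNA entry 0 were called, with RPS3 at 1.11 and RPS2 at 0.886. Of 10 genes mutated in Diamond-Blackfan anaemia, an inherited failure of red cell production, RPL11, RPL35A (1.37) and RPS19 (1.204, or 1.172 and not called with no mitochondrial limit) were called higher and 0 lower, and RPS26, at 0.945, turned to 1.001 with TMM scaling. The 5 members that the study names in its panels of maintenance and budding genes, which it chose on other single cells of the same study, had 4 called higher, RPS28, RPS12 (1.39), RPL8 (1.28) and RPL36 (1.26), and RPL18 at 1.18.

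Against the other populations of Mix2 strong IR gave like counts, though these comparisons reuse its cells. Against R, 19 members were called higher (23.5%, against 20.4% of all measured genes) and 1 lower (1.23%, against 33.5%). Against weak IR, 21 were called higher (25.9%, against 19.6%) and 1 lower (1.23%, against 35.0%). The gene called lower was RPL7L1 both times, with ratios of 0.719 and 0.789.

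The make-up of the ribosomal protein UMIs was followed along the tag, as the share of 1 gene in the UMIs of all members, which sets aside the higher total. From 500 to 1000 tag8 counts to more than 20000, RPS12 went from 1.91% to 2.91% and RPL11 from 1.65% to 2.40%. RPL39 went from 1.62% to 2.65%. RPS12 is a small subunit protein that the study names among its maintenance genes and, in its text, also among its budding genes. RPS29 went from 2.01% to 1.199%, RPL5 from 1.56% to 0.976% and RPL31 from 0.330% to 0.223%. Each of the 6 was highest or lowest in the last step. The 6 were singled out after their values were seen, and the upper steps are strong IR itself. The pattern thus describes chosen genes and is no separate support. In NC the 6 shares were 1.98%, 1.54%, 1.59%, 2.12%, 1.49% and 0.365%. RPL11 and RPL5 thus began close together and ended at 2.40% and 0.976%. The CPM of RPL5 was 3261 in the first step of strong IR and 3179 in the last, so its smaller share went with a level that differed little, while RPL11 had 4281 and 7837 CPM. RPS27L had 0.260% at 500 to 1000 counts, 0.368% in the first step of strong IR and 0.466% in the last.

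**Figure D3:**
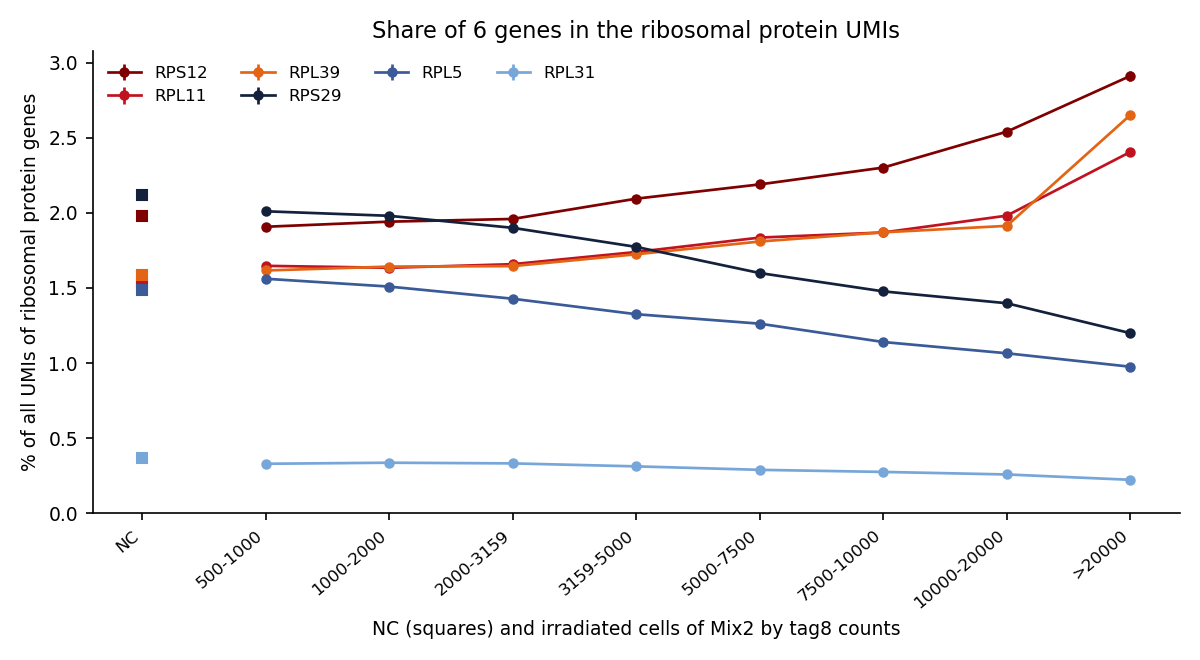
Share of 6 ribosomal protein genes in all UMIs of the 84 genes (y axis, percent) in NC (squares) and in cells of Mix2 that carried tag8, by tag8 counts (x axis); bars are 95% counting intervals, mostly smaller than the points. RPS12, RPL11 and RPL39 take a larger share with more tag8, and RPS29, RPL5 and RPL31 a smaller one. The 6 genes were singled out after their values were seen.

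Weak IR and R differed little from NC. The median log2 ratio was 0.02 in weak IR and 0.04 in R, against -0.02 and -0.03 over all genes, and the SD over members was 0.064 and 0.072. In weak IR 1 member was called higher (1.23%, against 2.49% of all measured genes), RPS27L, and 0 lower (against 4.26%). In R 0 were called higher (against 4.34%) and 1 lower (1.23%, against 9.15%), RPL26L1 at 0.816 (0.738 to 0.901). RPS27L missed the call in R at 1.198. With an own-tag share of 95% its ratio was 1.07 in weak IR and 1.417 in R. The next ratios were small, with RPS28 and RPL23A at 1.09 in weak IR, RPL23A at 1.11 and RPL3 at 1.10 in R. RPL31 was at 0.929 in weak IR and 0.917 in R, and RPL22L1 at 0.929 and 0.927. In R every measured member but RPS27L and RPL26L1 thus lay between 0.917 and 1.11 times the level of NC.

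Mix1 was compared with NC across libraries, so library, preparation and irradiation cannot be told apart in it. There 42 members were called higher (51.9%, against 19.9% of all measured genes) and 6 lower (7.41%, against 35.6%), with a median log2 ratio of 0.28 against -0.12 over all genes. The highest were RPS21 at 2.16 (2.11 to 2.21), RPL27A at 1.62 and RPL30 at 1.59. Among the lowest were RPL17 at 0.433 (0.412 to 0.456), RPS29, RPS10 at 0.699 (0.679 to 0.719) and RPL36A at 0.711. RPS21, a small protein of the small subunit, was at 1366 CPM in NC, 1383 in R, 1609 in strong IR, 1384 in weak IR and 2950 in Mix1. RPL17, at the tunnel exit, was at 283, 301, 330, 298 and 123 CPM in that order. For both, Mix1 alone stood apart, and strong IR had 1.18 and 1.17 times the level of NC.

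RPS21, RPL17 and RPS10 were followed within Mix1. When the cells of each population were ranked by their share of ribosomal protein UMIs and cut into 4 bins of equal size, RPS21 took 1.02% to 1.04% of the members' UMIs in each bin of Mix1 and 0.565% to 0.602% in each bin of NC. RPL17 took 0.0397% to 0.0462% and 0.113% to 0.130%, and RPS10 0.185% to 0.203% and 0.323% to 0.358%. RPL17, RPS10 and RPL36A each have a read-through partner in the annotation that spans them and the next gene. A read there can fit both entries. RPL17-C18orf32 had 0.819 CPM in NC and 0.299 in Mix1, and RPS10-NUDT3 2.46 and 1.96. Cell Ranger differed in version between the libraries, and the part of counting in these values was not tested.

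The same bins showed which other genes went with a high share inside a population. In NC, whose cells had not been irradiated, CDKN1A was at 220 (194 to 249) per 1e6 UMIs outside the members and the mitochondrial genes in the lowest bin and 348 (312 to 387) in the highest, and MKI67 at 589 and 315. In R the values were 234 and 709 for CDKN1A and 637 and 267 for MKI67, in strong IR 1058 and 1939, and 321 and 53.0. Weak IR had 352 and 698, and 545 and 220, and Mix1 556 and 1705, and 400 and 64.5. In each of the 5 populations the cells with the largest share thus had more CDKN1A and less MKI67 than those with the smallest. CDKN1A did not climb at every step in NC, R, weak IR or strong IR. These values are sums over the cells of a bin. The median over cells of CDKN1A in the lowest and highest bin was 193 and 231 in NC and 175 and 282 in R. It was 194 and 395 in weak IR, 776 and 1675 in strong IR and 254 and 1319 in Mix1. In NC and R the medians thus lay closer together than the sums. Depth also differed between the lowest and highest bin, with median UMIs per cell of 8058 and 5981.5 in weak IR and 7670 and 6324 in R. In Mix1 they were 10700, 9950, 3039 and 7951 from the lowest to the highest bin. The part of depth in these values was not tested. The bins are ranges of a continuous score and not cell types. Within 1 percentage point of the lower limit of the highest bin (24.9% and 30.6%) lay 246 cells of NC and 195 of strong IR.

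**Figure D4:**
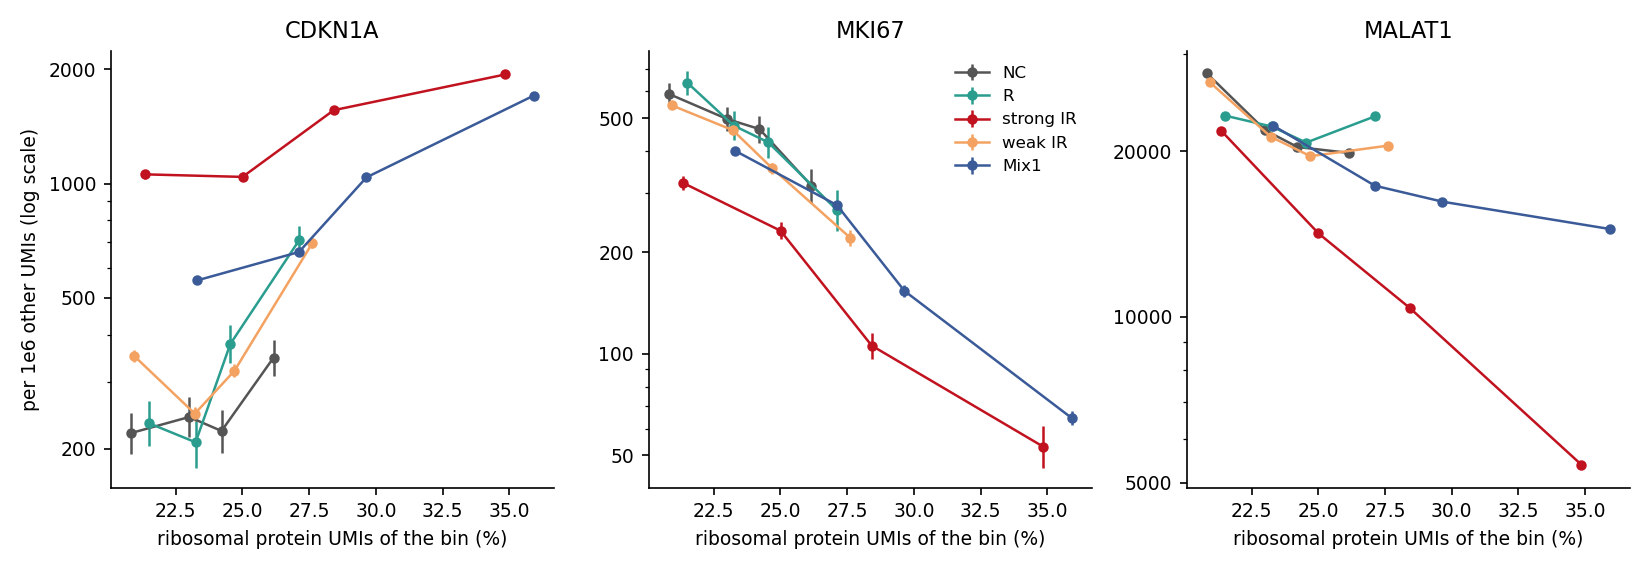
CDKN1A, MKI67 and MALAT1 (UMIs per 1e6 UMIs outside the ribosomal protein and mitochondrial genes, log axes) in 4 equal bins of the cells of each population, placed by the share of ribosomal protein UMIs in the bin (x axis, percent). UMIs are summed over the cells of a bin, and bars are 95% counting intervals. CDKN1A is higher and MKI67 lower in the highest than in the lowest bin of all 5 populations, and MALAT1 falls furthest in strong IR, from 21813 to 5392.

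MALAT1 and the mitochondrial genes moved with the bins in strong IR. Over the cells of the lowest and highest bin, the median of MALAT1 was 16573 and 1958 and the median mitochondrial share 6.85% and 3.09%. In NC these were 22964 and 16298, and 5.97% and 5.93%. EEF1A1, the elongation factor whose mRNA also carries a pyrimidine tract, was at 6590 and 12066 in strong IR, and NPM1, a nucleolar chaperone of ribosome assembly, at 2148 and 1597. Their part in the share was not tested.

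Genes outside the rule were set beside the members. Of the 4 ribosomal proteins with other symbols, 2 were called higher in strong IR against NC, among them RPL36AL (1.21), with a median log2 ratio of 0.26, and RACK1 and FAU had 1.18 and 1.15. Again against 21.2% and 39.3% of all genes, of 23 measured mRNAs of other translation factors and partners known for the tract, 7 were called higher and 5 lower, with a median of 0.11 (the list has 3 of those 4 genes as well). TPT1, a growth-related protein, had 1.33, EEF2 1.27 and EEF1A1 1.06, while NPM1 had 0.666 and the splicing regulator HNRNPA1 0.528. Of 69 measured mitochondrial ribosomal proteins, which serve the separate ribosome of the mitochondrion and whose mRNAs mostly lack the tract (5 of 78 have it), 5 were called higher and 25 lower, with a median of -0.15. That median is next to the median of all genes and below that of the cytoplasmic set. Lower calls were near the background, and higher calls were below it. In Mix1 the medians were 0.06 for the tract list and -0.08 for the mitochondrial set.

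**Figure D5:**
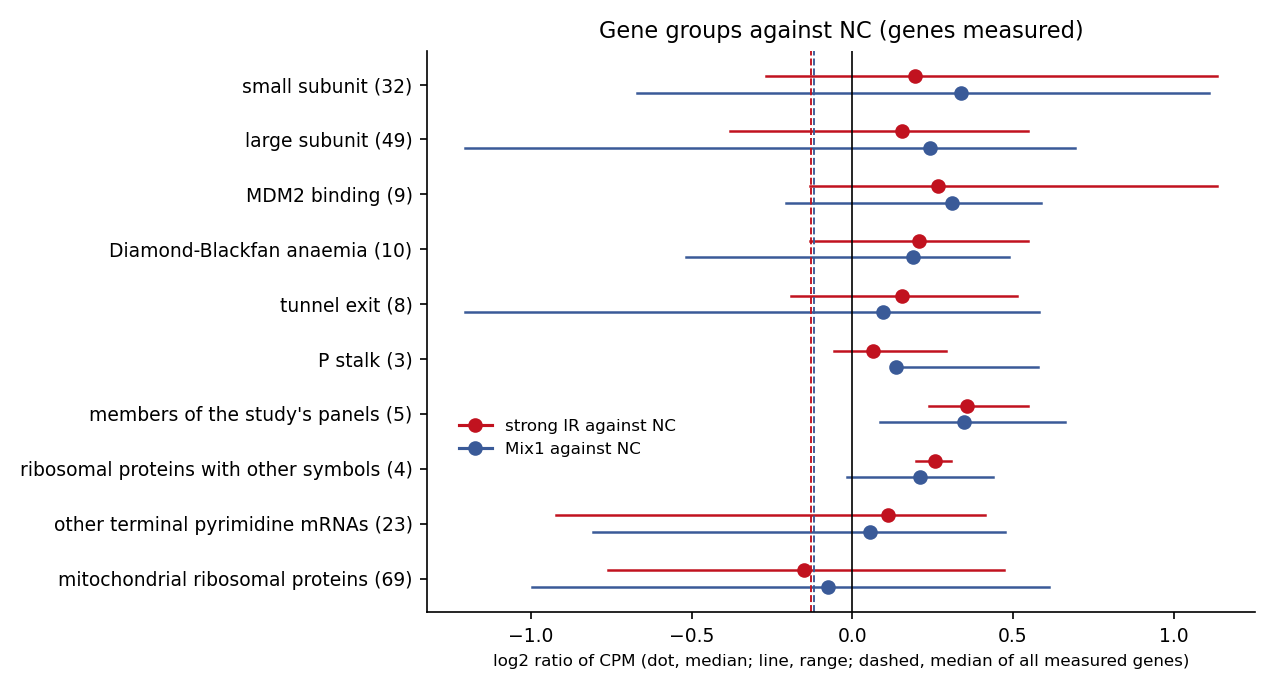
Median (dot) and range (line) of the log2 ratio of CPM to NC for groups of ribosomal protein genes and for related genes, in strong IR (red) and Mix1 (blue). The number after each name counts the genes measured in strong IR against NC, and dashed lines mark the median of all measured genes, -0.13 and -0.12. Of the groups drawn, the medians of all but the mitochondrial ribosomal proteins lie above 0; the paralogs (-0.16 in strong IR) and the mRNA entry pair (-0.01) are not drawn.

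Properties of the transcripts were set beside the ratios. Over the 81 members, which share libraries and depth, Pearson's r and Spearman's rho of the log2 ratio in strong IR were 0.07 and 0.10 with the GC content of the canonical transcript (39.9% to 63.5%), -0.27 and -0.20 with the length of the coding sequence (78 to 1284 bases) and 0.22 and 0.22 with the log2 CPM in NC. For the coding length they were -0.33 and -0.29 in weak IR, and for the log2 CPM in NC 0.33 and 0.08 in Mix1. Members with the tract had a median log2 ratio of 0.19 in strong IR (n = 59) and those without it 0.14 (n = 22). The members lie on 21 chromosomes, 12 of them on chromosome 19.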

How the data were processed

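Gene counts of single cells were analysed for 2 droplet libraries (3′ kit of 10x Genomics, v3.1). Per the file headers, the authors made them with Cell Ranger 3.1.0 (Mix1) and 3.0.1 (Mix2), and the deposited values are whole UMI counts per gene and barcode without normalization. The submitters' notes list GRCh38, mm10 and Seurat 2.3. The unfiltered matrix of Mix2 served only for droplets of 1 to 100 UMIs without cells (1467872). Cells with at least 200 genes and under 10% mitochondrial UMIs were kept. Tag limits were 374 counts of tag6 (NC), 104 of tag7 (R), 3160 of tag8 (strong IR) and 500 to 3159 of tag8 (weak IR), and the own tag had to make up 80% of the 3 tags, which leaves out droplets of mixed tags. No doublet caller was run, and doublets in the untagged Mix1 and doublets of 1 tag remain.

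CPM were taken from the summed UMIs of all cells in a population, and ratios and intervals were computed with scipy 1.17.1. Cells are not replicates, so there was no test. The ratios, intervals and calls were run on counts simulated with known folds at the depths of strong IR and NC. That simulation held counting error only, so it cannot show the spread between cells or cultures. Alternatives changed the scaling (TMM of edgeR 4.0.16), weight of cells, cell, tag and gene filters, depth, background, fold and member list. Each gene was named by a rule: the 6 highest and 6 lowest ratios in strong IR, the 3 highest and 3 lowest in weak IR, R and Mix1, the paralogs, and the groups by role. RPL36A, the read-through genes and the genes followed along tag8 were singled out after their values were seen. The members and lists were chosen with earlier results of these data known. Positions and transcripts are from GENCODE 44 (GRCh38, the build of the files), and ribosomal protein genes have many processed pseudogenes, whose reads the counting may drop or split.

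The planned search of a promoter table for the tract was replaced by the first bases of canonical transcripts, since that table held 67 of the 84 symbols. Some genes are left out of the text and figures and not reported here, but they stay in all counts and medians.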

Additional observations from a re-analysis of the deposited data

How the results depend on the processing

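No paired analysis was possible because each population is 1 sample. No called ratio turned direction under the alternatives run, while the uncalled ratios of RPL22L1, RPL23, RPLP0 and RPS26 in strong IR against NC lay on either side of 1. Of the ratios of named genes, 1303 stayed within their counting interval and 1117 did not. With CPM computed without the members and mitochondrial genes, the median log2 ratio against NC was 0.24 in strong IR. It was 0.039 in weak IR and 0.072 in R against NC, and 0.21 in strong against weak IR. R against NC then had 1 member called higher and 0 lower, against 6.335% and 6.743% of all measured genes. With TMM the medians were 0.26, 0.091 and 0.060 in strong IR, weak IR and R against NC, and 0.195 in strong IR against R. Against NC, 39 members were higher in strong IR and 1 in R, against 27.56% and 5.358% of all genes. In strong IR against R 29 were higher, against 25.04%.

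Percentages beside the counts that follow are the share of all measured genes called in the same way. Equal weight per cell gave 2 lower calls (35.52%) against R and 3 (35.78%) against weak IR for strong IR. Cells of 5000 to 15000 UMIs gave 2 (36.68%) and 2 (38.12%), and 0 higher in weak IR (2.305%). Thinning to 3000 UMIs gave 2 (34.38%) and 2 (37.41%). Leaving out the top 5% of cells by UMIs gave 2 (35.58%) against weak IR, as did subtracting free RNA (36.5%). Subtracting free RNA also gave 1 higher in R (4.854%), as did lifting the mitochondrial limit (4.263%). An own-tag share of 95% left 88 cells of NC and 44 of R. Against NC it gave 0 lower in strong IR (34.31%) and 0 higher in weak IR (4.316%). R had 1 higher (4.536%) and a median of 0.091 against NC. Strong IR had 2 lower calls against each of R (21.4%) and weak IR (34.13%). All irradiated cells of Mix2 as 1 population had 4 higher (8.182%), 0 lower (17.32%) and a median of 0.084 against NC. Against R they had 1 higher (6.716%), 0 lower (9.284%) and a median of 0.039. A filter of 200 CPM gave 1 lower call in strong IR (35.88%) and 0 in R (5.754%) against NC. It gave 0 lower in strong IR against R (32.01%) and weak IR (32.76%). Leaving out the paralogs gave the same counts, with 39.29%, 9.147%, 33.49% and 35.03% in that order. Without paralogs weak IR had 0 higher against NC (2.489%). A fold of 1.5 gave 1 higher and 0 lower for strong IR against NC (8.015% and 16.88%). The counts were the same against R (6.747% and 12.15%) and weak IR (6.472% and 12.03%). Against NC, Mix1 had 7 higher (6.336%) and 2 lower (12.88%), weak IR 0 higher (0.3608%) and R 0 lower (0.5423%).

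The share of the members, in the order NC, R, strong IR, weak IR and Mix1, was 23.65%, 23.85%, 26.55%, 23.93% and 28.56% as the median over cells, 23.42%, 23.94%, 27.29%, 23.75% and 27.65% in cells of 5000 to 15000 UMIs, 23.34%, 23.91%, 26.42%, 23.5% and 28.34% with no mitochondrial limit, 23.58%, 24.09%, 27.44%, 23.87% and 28.4% thinned to 3000 UMIs, and 24.96%, 25.87%, 28.76%, 25.48% and 29.93% with mitochondrial genes out of the denominator. Why these values moved was not tested. Depth limits little here, since the median counting error of a member's log2 ratio was 0.016 or less, but with 1 sample per population the spread between cultures is unknown.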
